A study of Mus musculus with 12 samples.

Results

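The genes described here are 10 genes of MHC class II antigen presentation, namely *H2-Aa*, *H2-Ab1*, *H2-Eb1*, *Cd74*, *H2-DMa*, *H2-DMb1*, *H2-DMb2*, *Ciita*, *Cd80* and *Cd86*. They were picked by symbol for their function from the 49315 genes of the deposited count table, with earlier results of these data known, and all 10 passed the filter on low counts that left 20290 genes for testing. Bulk RNA-sequencing covered the brains of 12 male mice at 14 d post-stroke. All recipients were CD45.1 Pep Boy mice of the C57Bl6 congenic background, 8 to 12 weeks old at irradiation with the head shielded, and all received 90% CD45.1 *Tet2*+/+ BM cells. The other 10% were CD45.2 *Tet2*-/- BM cells in the 6 mice of the *Tet2*-KO group and CD45.2 *Tet2*+/+ BM cells in the 6 mice of the WT group, and transient occlusion of the right middle cerebral artery for 30 min followed 8 to 10 weeks after transplant. The *Tet2* deletion was therefore carried only by blood-derived cells, and the brain cells and most of the transplanted marrow kept *Tet2* in both groups.

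MHC class II molecules present peptides from endosomes to CD4+ T cells. An alpha and a beta chain pair in the endoplasmic reticulum, where the invariant chain encoded by *Cd74* fills their groove and takes them to endosomes. There cathepsins degrade the invariant chain, and the DM molecule exchanges its last fragment for a peptide. Transcription of the chain genes depends on the coactivator CIITA, which binds no DNA itself but joins a complex of RFX, CREB and NF-Y proteins on the X and Y boxes upstream of these genes, and interferon gamma induces *Ciita*. In the brain, resting microglia carry little class II, whereas border macrophages, dendritic cells, B cells and monocyte-derived cells that enter after injury can carry much of it. CD80 and CD86 are the B7 ligands of CD28 on T cells, the second signal that accompanies a presented peptide.

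The 3 H2-A and H2-E chain genes and the 3 DM genes lie in the MHC on chromosome 17 of GRCm38 (mm10), as annotated in GENCODE M21. *H2-Aa* is at chr17:34282744-34287823 on the minus strand, *H2-Ab1* at chr17:34257689-34269419 and *H2-Eb1* at chr17:34305867-34316674, both on the plus strand. *H2-DMa* at chr17:34119541-34139101, *H2-DMb2* at chr17:34143307-34151555 and *H2-DMb1* at chr17:34153072-34160230 follow each other on the plus strand. *Ciita* (chr16:10480059-10528418), *Cd80* (chr16:38455561-38496335) and *Cd86* (chr16:36603869-36666081, minus strand) are on chromosome 16. Counts were taken over exons. Of the exonic bases of *H2-DMa*, 10.4% also lie in exons of *Brd2* on the opposite strand, and of those of *Ciita*, 3.45% lie in exons of *Dexi* on the opposite strand. The strand setting of the counting is not given in the sources used here, so the counts of *H2-DMa* and *Ciita* are uncertain. These shares of bases do not give the share of counts affected.

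Because members of the group share a known promoter code, the upstream sequences were searched for it. RefSeq promoter windows (GRCm38.p6, 250 bases before to 50 after a transcript start) were matched by symbol for 6 of the 10 genes, with 7 windows in all. The letters searched, on both strands, were AACNGATG for the core of the X box, with N for any base, and GATTGG for the core of the Y box, the reverse of the CCAAT box that NF-Y binds. These letters do not overlap each other in the sequences shown, and are printed in capitals. The 4 sequences are shown because they are the members with a Y box core close to the start, read 5′ to 3′ along the gene's own strand.
H2-Eb1: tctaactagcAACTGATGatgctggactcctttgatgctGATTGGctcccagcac
H2-DMb1: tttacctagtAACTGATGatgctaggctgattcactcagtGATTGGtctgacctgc
H2-DMb2: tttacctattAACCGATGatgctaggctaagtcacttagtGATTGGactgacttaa
H2-Aa: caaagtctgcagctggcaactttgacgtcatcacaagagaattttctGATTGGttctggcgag

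The sequence of *H2-Eb1* covers positions -99 to -45 from the start (chr17:34305768-34305822, plus strand), that of *H2-DMb1* -102 to -47 (chr17:34153089-34153144, plus strand), that of *H2-DMb2* -131 to -76 (chr17:34145118-34145173, plus strand) and that of *H2-Aa* -96 to -34 (chr17:34287857-34287919, minus strand). In *H2-Eb1*, *H2-DMb1* and *H2-DMb2* the X core is followed by the Y core after 21, 22 and 22 bases. The X letters occur in 2.32% of all 32851 RefSeq windows and the Y letters in 16.1%. An X core followed on the same strand by a Y core after 15 to 30 bases, limits set after these positions were seen, occurs in 5 windows (0.0152%), those of *H2-Eb1*, *H2-DMb1*, *H2-DMb2*, *H2-Eb2* and *BC051142*. *H2-Aa* has the Y core at -49 without the X letters, 1 of the 2 *H2-DMa* windows has a Y core at -199, and the *Cd80* window and the other *H2-DMa* window have neither. A match is a description of letters and says nothing of binding in these brains.

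**Figure D1:**
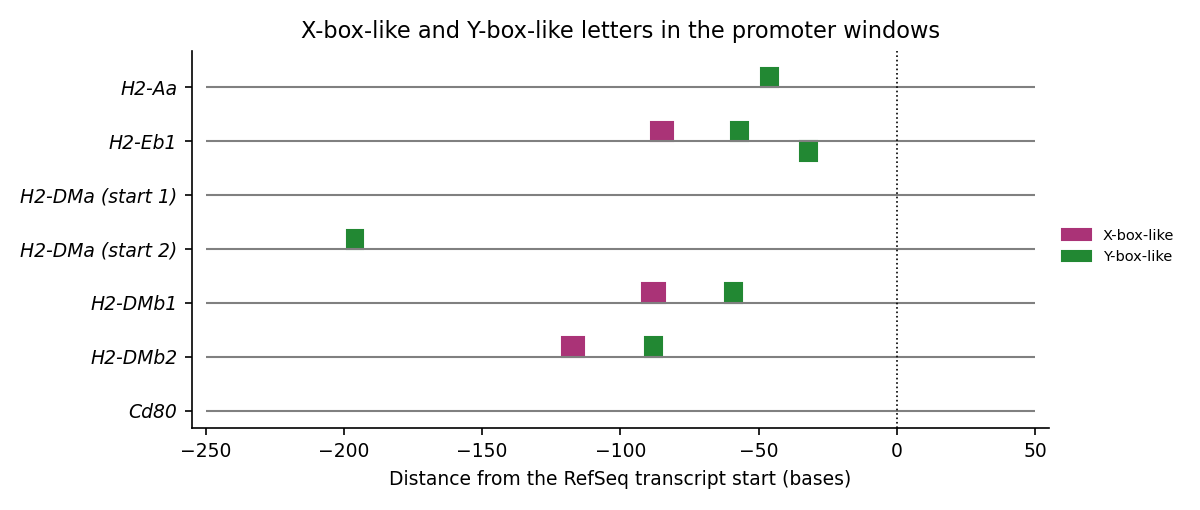
X-box-like letters (AACNGATG, purple) and Y-box-like letters (GATTGG, green) in the 7 RefSeq promoter windows of 6 class II genes, against the distance in bases from the transcript start (dotted line). Boxes above a line are on the gene's strand and boxes below it on the opposite strand, and an X then a Y core stand in *H2-Eb1*, *H2-DMb1* and *H2-DMb2*.

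Libraries held 12000261 to 15340787 counts in WT mice and 12625047 to 21049763 counts in *Tet2*-KO mice. The level of *Tet2*, in CPM (counts relative to the TMM-scaled library size), was 126 to 147 in WT mice and 117 to 137 in *Tet2*-KO mice, and is no check of the labels because most cells of the brain keep the gene. Within each group, 1 mouse stood apart in the class II genes. WT replicate 2 was the highest of the 12 mice in all 10 genes, and *Tet2*-KO replicate 5 ranked between 2 and 5 of the 12, among the WT mice. The fits of the 10 genes are therefore also given without each of these mice.

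All 10 genes had lower mean levels in the *Tet2*-KO group. Their log2 fold changes lay between -1.69 and -0.33 with a median at -1.21, against a median of 0.010 over all genes tested. In bulk tissue, fewer cells of a type and less RNA per cell cannot be told apart. None of the 10 passed an adjusted p of 0.05 (edgeR quasi-likelihood F test with Benjamini-Hochberg adjustment over all genes tested, adjusted p from 0.110 to 0.206), a threshold that 0.0246% of all genes passed. All 10 had an unadjusted p below 0.05 with a lower level, which 12.2% of all genes had. None of the 10 genes had every *Tet2*-KO mouse below every WT mouse (0.641% of all genes), but in 8 of them 5 of the 6 *Tet2*-KO mice lay under all WT mice (5.64% of all genes had at least 5). The exact two-sided permutation test, run gene by gene, gave p below 0.05 in 9 members, all but *H2-DMa* (22% of all genes had it). The call depended on the test and on *Tet2*-KO replicate 5. On the same genes, 6 members passed an adjusted p of 0.05 in the DESeq2 Wald test (4.62% of all genes were lower past it), and on every gene with a count 4 did (1.87%). In limma-voom with sample quality weights 8 members passed (7.01%). Without *Tet2*-KO replicate 5, edgeR placed 9 members past the adjusted threshold (7.3% of all genes were lower past it) and 8 members had no overlap between the groups (4.76%). In these 8 only replicate 5 had overlapped, so their separation follows from leaving it out. That mouse was picked from the levels of the members, so neither count is separate support for a difference. With any of the 11 other libraries left out, 0 members passed the adjusted threshold. Without WT replicate 2 the adjusted p of the members rose to between 0.217 and 0.416, and 8 of the 10 had an unadjusted p below 0.05 with a lower level (7.92% of all genes had it), all but *H2-DMa* and *Cd86*. Without *Tet2*-KO replicate 1 the edgeR adjusted p of the members lay between 0.194 and 0.361, with a median log2 fold change of -1.13. In that fit 8 members had an unadjusted p below 0.05 with a lower level, as did 2015 of 20522 genes.

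**Figure D2:**
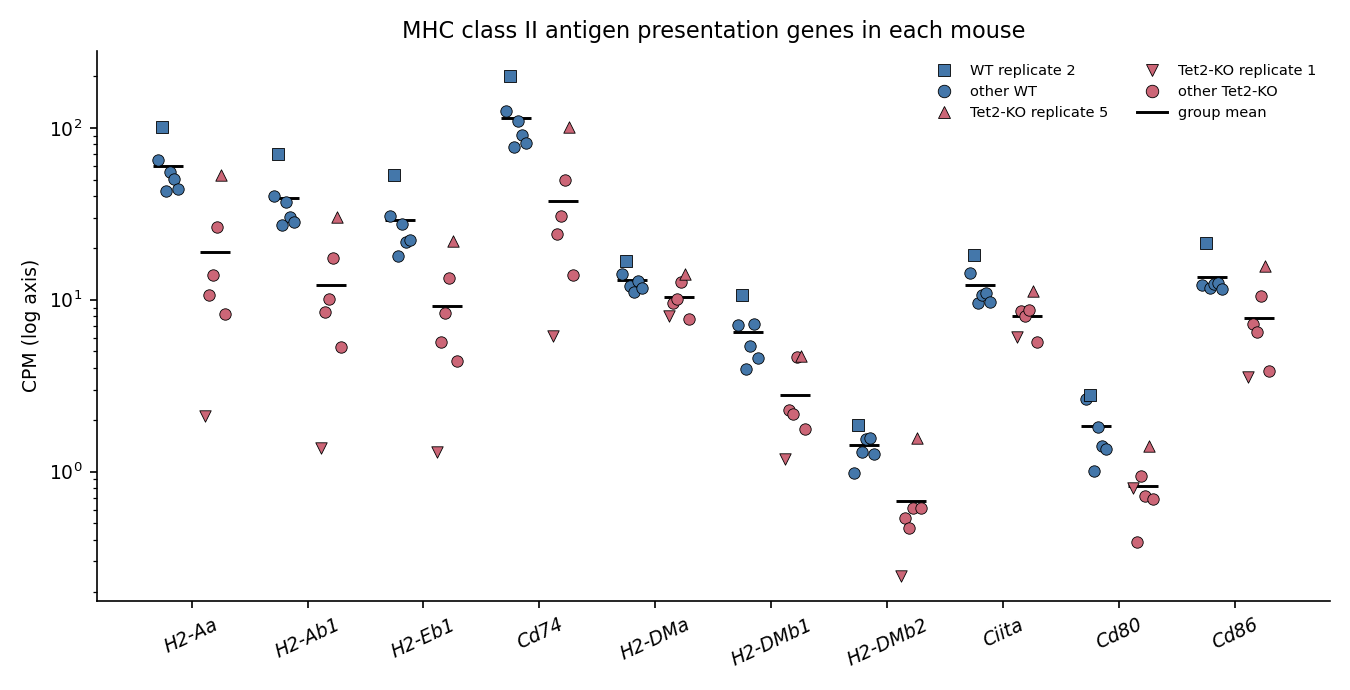
Level of each of the 10 genes in each of the 12 mice, in CPM on a log axis, with WT mice in blue, *Tet2*-KO mice in red and the mean of each group (n = 6) as a bar. The square marks WT replicate 2, highest in every gene, the upward triangle *Tet2*-KO replicate 5, within or close to the WT mice, and the downward triangle *Tet2*-KO replicate 1, lowest of all mice in 7 of the 10 genes.

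The classical chains showed the largest differences. *H2-Aa* (ENSMUSG00000036594) encodes the alpha chain of H2-A, the only class II molecule that C57Bl6 mice carry at the surface. Its level was lowest at 42.7, median 52.9 and highest at 102 CPM in the WT mice, and lowest at 2.11, median 12.3 and highest at 52.8 CPM in the *Tet2*-KO mice. The groups overlapped through *Tet2*-KO replicate 5 alone, since the other *Tet2*-KO mice reached at most 26.5 CPM. The means were 59.9 ± 22.0 and 19.0 ± 18.4 CPM (SD, 6 mice each), which gave a log2 fold change of -1.67 (standard error, SE, 0.58, edgeR adjusted p = 0.148), or 3.18-fold lower. *H2-Ab1* (ENSMUSG00000073421), its partner beta chain, ranged from 27.2 over a median of 33.6 to 70.8 CPM in the WT group and from 1.36 over a median of 9.33 to 30.1 CPM in the *Tet2*-KO group. Again only *Tet2*-KO replicate 5 was within the WT range. The log2 fold change of *H2-Ab1* was -1.69 (SE 0.55, edgeR adjusted p = 0.133).

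*H2-Eb1* (ENSMUSG00000060586) encodes the beta chain of H2-E, whose alpha chain is not made in C57Bl6 mice. It averaged 28.9 ± 12.8 CPM in WT mice against 9.16 ± 7.44 CPM in *Tet2*-KO mice (SD, 6 per group), with a lowest, median and highest value of 18.0, 24.9 and 53.2 CPM in the WT group and of 1.30, 7.01 and 21.9 CPM in the *Tet2*-KO group. Here too 5 of 6 *Tet2*-KO mice lay under all WT mice. Its log2 fold change of -1.67 (SE 0.52, edgeR adjusted p = 0.131) was close to that of *H2-Aa*, although its product has no partner in this strain. The alpha chain locus itself, annotated as the pseudogene *H2-Ea-ps*, had 0 counts in every WT mouse and at most 1 count in a *Tet2*-KO mouse.

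*Cd74* (ENSMUSG00000024610), the invariant chain, was the most abundant of the 10 genes. It ranged from 77.6 over a median of 99.8 to 201 CPM in the WT group and from 6.13 over a median of 27.4 to 101 CPM in the *Tet2*-KO group, with means of 114 ± 46.1 and 37.5 ± 34.5 CPM (SD, n = 6 per group). All *Tet2*-KO mice but replicate 5 were below the WT range. The log2 fold change was -1.61 (SE 0.57, edgeR adjusted p = 0.149). Without *Tet2*-KO replicate 5, *H2-Aa*, *H2-Ab1*, *H2-Eb1* and *Cd74* had log2 fold changes of -2.26, -2.16, -2.10 and -2.18 (edgeR adjusted p from 0.0227 to 0.0262). Without WT replicate 2 these were -1.45, -1.44, -1.41 and -1.38 (edgeR adjusted p from 0.276 to 0.311).

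Together these 4 genes summed to between 166 and 426 CPM in the WT mice (median 211) and to between 10.9 and 206 CPM in the *Tet2*-KO mice (median 56.0). In *Tet2*-KO replicate 1 the 4 genes held 176 counts, 0.00106% of the library (95% Clopper-Pearson interval 0.000912% to 0.00123%, counting error only), and in WT replicate 2 they held 5946 counts, 0.0434% (0.0423% to 0.0445%). The spread among the *Tet2*-KO mice was wide, with the highest mouse 25.1 times the lowest in *H2-Aa*, 22.1 times in *H2-Ab1*, 16.8 times in *H2-Eb1* and 16.5 times in *Cd74*. These ratios rest on the mice at both ends. In *H2-Aa* the ratio was 12.6 without *Tet2*-KO replicate 5 and 6.41 without replicate 1, and over the 4 genes it was 8.07 to 12.8 without replicate 5 and 4.99 to 7.29 without replicate 1. Among all 6 WT mice the ratios were between 2.38 and 2.96. The share of *Cd74* in the counts of the 4 genes was between 46.2% and 47.8% in the WT mice. It spread more widely in the *Tet2*-KO mice, from 43.6% in replicate 6 to 56.3% in replicate 1.

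The DM genes, whose product loads peptide onto class II, were lower in level and differed among themselves. *H2-DMa* (ENSMUSG00000037649), the alpha chain, had the smallest difference of the 10 genes. It ranged from 11.0 over a median of 12.4 to 16.7 CPM in the WT group and from 7.77 over a median of 9.86 to 14.2 CPM in the *Tet2*-KO group, and 4 of 6 *Tet2*-KO mice lay under all WT mice. The means of *H2-DMa* were 13.1 ± 2.09 and 10.4 ± 2.56 CPM (SD, 6 mice each), which gave a log2 fold change of -0.33 (SE 0.15, edgeR adjusted p = 0.206). It was the member with no adjusted p below 0.05 in the fit without *Tet2*-KO replicate 5, where its log2 fold change was -0.43 and its adjusted p 0.0567. Without WT replicate 2 it was -0.24 (edgeR adjusted p = 0.416).

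*H2-DMb1* (ENSMUSG00000079547), a beta chain, averaged 6.49 ± 2.44 CPM in WT mice against 2.79 ± 1.51 CPM in *Tet2*-KO mice (SD, 6 per group). Its lowest, median and highest values were 3.95, 6.26 and 10.7 CPM in the WT group and 1.18, 2.22 and 4.71 CPM in the *Tet2*-KO group, with *Tet2*-KO replicates 4 and 5 above the lowest WT mouse. The log2 fold change was -1.22 (SE 0.34, edgeR adjusted p = 0.121). *H2-DMb2* (ENSMUSG00000037548), the second beta chain gene, rested on 13 to 26 counts per WT mouse and 4 to 20 per *Tet2*-KO mouse. It was between 0.978 and 1.86 CPM (median 1.42) in the WT group and between 0.248 and 1.57 CPM (median 0.575) in the *Tet2*-KO group, where 5 of the 6 mice were below every WT mouse. Its log2 fold change was -1.12 (SE 0.32, edgeR adjusted p = 0.116). *H2-DMb1* and *H2-DMb2* had log2 fold changes of -1.40 and -1.497 without *Tet2*-KO replicate 5 (edgeR adjusted p = 0.0269 and 0.00644) and of -1.01 and -1.03 without WT replicate 2 (edgeR adjusted p = 0.239 and 0.233). The beta chain genes are close copies. Of all 31-base stretches of the *H2-DMb1* transcript 37.6% also occur in that of *H2-DMb2*, 5.74% of its 150-base stretches do, and the longest shared run is 221 bases. Read pairs that lie wholly within shared stretches could not be assigned to one of them, so the counts of both are uncertain.

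*Ciita* (ENSMUSG00000022504), the class II coactivator, differed less than the chains it controls. It ranged from 9.62 over a median of 10.8 to 18.3 CPM in the WT group and from 5.69 over a median of 8.34 to 11.2 CPM in the *Tet2*-KO group. The *Tet2*-KO mice other than replicate 5 reached at most 8.74 CPM, below every WT mouse. The means of *Ciita* were 12.2 ± 3.41 and 8.07 ± 2.01 CPM (SD, 6 mice each), which gave a log2 fold change of -0.60 (SE 0.19, edgeR adjusted p = 0.125), or 1.52-fold lower. It was -0.71 without *Tet2*-KO replicate 5 (edgeR adjusted p = 0.0285) and -0.45 without WT replicate 2 (edgeR adjusted p = 0.248).

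Of the B7 ligands, *Cd80* (ENSMUSG00000075122) was scarce, with 14 to 39 counts per WT mouse and 8 to 18 per *Tet2*-KO mouse. Its level was between 1.01 and 2.80 CPM (median 1.61) in the WT group and between 0.389 and 1.41 CPM (median 0.763) in the *Tet2*-KO group. A single *Tet2*-KO mouse, replicate 5, lay within the WT range. The log2 fold change of *Cd80* was -1.20 (SE 0.30, edgeR adjusted p = 0.110). *Cd86* (ENSMUSG00000022901) averaged 13.6 ± 3.80 CPM in WT mice against 7.87 ± 4.56 CPM in *Tet2*-KO mice (SD, 6 per group), with lowest, median and highest values of 11.5, 12.2 and 21.3 CPM in the WT group and of 3.53, 6.88 and 15.6 CPM in the *Tet2*-KO group. *Tet2*-KO replicate 5 at 15.6 CPM exceeded 5 of the 6 WT mice, and the other *Tet2*-KO mice were below all of them. The log2 fold change of *Cd86* was -0.79 (SE 0.34, edgeR adjusted p = 0.195). Without *Tet2*-KO replicate 5, *Cd80* and *Cd86* had log2 fold changes of -1.39 and -1.08 (edgeR adjusted p = 0.0161 and 0.0332), and without WT replicate 2 of -1.04 and -0.62 (edgeR adjusted p = 0.217 and 0.406).

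Levels of different genes were compared per kilobase of annotated exon (RPKM). In the WT mice *Cd74* was highest at 67.9 ± 27.5 RPKM (SD, n = 6), followed by *H2-Aa* at 15.8 ± 5.79, *H2-Ab1* at 15.2 ± 6.40 and *H2-Eb1* at 14.9 ± 6.57 RPKM. *Cd74* was above *H2-Aa* in all 12 mice. *H2-Aa* was above *H2-Ab1* in 9 of 12 and *H2-Ab1* above *H2-Eb1* in 6 of 12, so the 3 chains had no fixed order in RPKM. That depends on the exon lengths used, 3798 bases for *H2-Aa*, 2568 for *H2-Ab1* and 1944 for *H2-Eb1*. In CPM their WT means were 59.9, 38.9 and 28.9. A step to lower levels followed, with *H2-DMb1* at 3.86 ± 1.45, *H2-DMa* at 3.78 ± 0.606 and *Cd86* at 3.71 ± 1.04 RPKM. These genes had no fixed order in RPKM across the WT mice either. *Ciita* at 1.28 ± 0.358 RPKM was below *Cd86* and above *H2-DMb2* at 0.813 ± 0.176 RPKM in all 12 mice, and *Cd80* was lowest at 0.495 ± 0.198 RPKM. In RPKM the order of the DM chains was not the same in the *Tet2*-KO group. There *H2-DMa* at 3.02 ± 0.744 RPKM was above *H2-DMb1* at 1.66 ± 0.897 RPKM in all 6 mice, against 2 of the 6 WT mice. In CPM the lowest *H2-DMa* value was above the highest *H2-DMb1* value in both groups, so this order depends on the exon lengths.

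To ask whether the chains moved together, the log2 ratio of *H2-Aa* to each other gene was taken within each mouse and compared between the groups with an exact two-sided permutation test (n = 6 per group), adjusted over the 14 ratios. These ratios were chosen after the levels had been seen. The ratio of *H2-Aa* to *H2-Ab1* was 0.64 ± 0.076 in the WT mice and 0.57 ± 0.16 in the *Tet2*-KO mice (SD), a difference of -0.07 (exact permutation p = 0.370). Its ratios to *H2-Eb1* and *Cd74* differed by -0.17 and -0.15 (exact permutation p = 0.113 and 0.210). In none of these 3 ratios was a difference between the groups detected, and in each the groups overlapped. The difference to *H2-Eb1* was -0.25 without *Tet2*-KO replicate 5 and that to *Cd74* -0.21 without *Tet2*-KO replicate 6, both below an unadjusted 0.05 (exact permutation p = 0.0108 and 0.0411).

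Relative to the DM genes, *Ciita* and *Cd86*, *H2-Aa* was lower in the *Tet2*-KO mice. Its log2 ratio to *H2-DMa* was 2.14 ± 0.29 in WT and 0.29 ± 1.26 in *Tet2*-KO mice (SD, n = 6 per group), a difference of -1.84 (exact permutation test, adjusted p = 0.0152). The ratio to *Ciita* differed by -1.60 (exact permutation test, adjusted p = 0.0189), with *Tet2*-KO replicate 1 at -1.48 and replicate 5 at 2.22, inside the WT range of 2.14 to 2.47. The ratio to *Cd86* differed by -1.26 (exact permutation test, adjusted p = 0.0152), and there all 6 *Tet2*-KO mice, replicate 5 included, were below every WT mouse. *H2-DMb1* and *H2-DMb2* gave differences of -0.91 and -1.07 (exact permutation test, adjusted p = 0.0337 and 0.0394), and that to *H2-DMb2* was no longer below an unadjusted 0.05 without *Tet2*-KO replicate 1, WT replicate 1 or WT replicate 2 (exact permutation p = 0.0519, 0.0693 and 0.0671). The ratio to *Cd80* differed by -1.13 and did not pass (exact permutation test, adjusted p = 0.0716), and it depended on single mice and on the pseudocount. It was -0.62 without *Tet2*-KO replicate 1, and its unadjusted exact p was 0.0498, 0.0173 and 0.0108 without *Tet2*-KO replicate 2, 4 or 5. With a pseudocount of 1 CPM in place of 0.1 it was -1.45 (unadjusted exact permutation p = 0.0152). *Tet2*-KO replicate 1 had the lowest ratio to each of these 6 genes, and without it the differences to the DM genes, *Ciita* and *Cd86* lay between -1.41 and -0.61.

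The same ratio was taken to genes of leukocytes and macrophages. *H2-Aa* was lower relative to *Csf1r*, the receptor on which microglia and macrophages depend, with a difference of -1.57 and all 6 *Tet2*-KO mice under all WT mice (exact permutation test, adjusted p = 0.0152). The differences were -1.48 relative to *Itgam*, which encodes CD11b, -1.43 relative to *Aif1*, which encodes IBA1, -1.03 relative to *Cd68*, a lysosomal protein of phagocytes, and -0.84 relative to *Ptprc*, which encodes the CD45 of all leukocytes (exact permutation tests, adjusted p from 0.0152 to 0.0173). These ratios do not separate cell number from RNA per cell, since *Csf1r* and *Ptprc* come from several cell types.

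**Figure D3:**
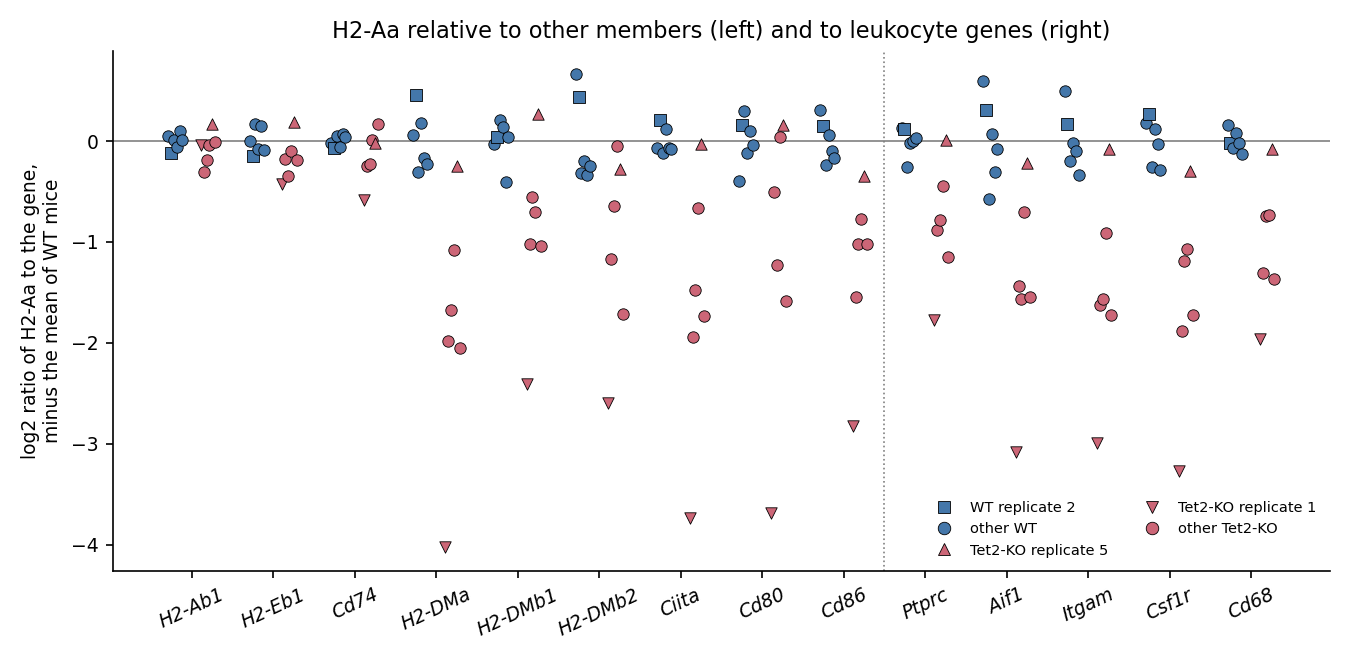
Log2 ratio of *H2-Aa* to each named gene in each mouse, minus the mean ratio of the 6 WT mice (grey line), with WT in blue and *Tet2*-KO in red. The ratios to *H2-Ab1*, *H2-Eb1* and *Cd74* overlap between the groups but spread more widely in the *Tet2*-KO mice, with replicate 1 (downward triangle) lowest for *H2-Eb1* and *Cd74*. The ratios to the genes further right are lower in most *Tet2*-KO mice, with all 6 below the WT mice for *Cd86* and *Csf1r*.

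Values were then read per mouse over all 10 genes. In percent of the WT mean, the median over the 10 genes was between 70.6% and 161% in WT mice. It was 17.8% in *Tet2*-KO replicate 1, 27.8% in replicate 6, 28.5% in replicate 2, 33.1% in replicate 3, 45.5% in replicate 4 and 88.3% in replicate 5. In *Tet2*-KO replicate 1 the single genes lay between 3.50% for *H2-Ab1* and 61.7% for *H2-DMa*, and *H2-DMa* was also the gene closest to its WT mean in *Tet2*-KO replicates 2, 3, 4 and 6.

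Genes whose profile over the 12 mice was closest to the average of the 10 were sought among all 19101 genes with a mean of at least 1 CPM, by the mean absolute difference of centred log2 CPM. The 10 closest genes outside the group were *Lcp1*, *Tnfrsf1b*, *Dcn*, *Ncf4*, *Ctsh*, *H2-K1*, *Cyba*, *Ptprc*, *Emilin1* and *Parp14*, at 0.047 to 0.10 log2 units, against a median of 0.79 over all genes compared. The members themselves were between 0.19 for *H2-DMb1* and 0.55 for *H2-DMa* from their own average. *Lcp1*, which encodes the leukocyte actin-bundling protein L-plastin, had a log2 fold change of -1.19, *H2-K1*, a class I heavy chain, one of -1.06, and *Dcn*, the extracellular matrix proteoglycan decorin, one of -1.30 (edgeR adjusted p from 0.121 to 0.154). The average profile was lower in most *Tet2*-KO mice, so lower levels of genes picked for their closeness to it follow from the choice.

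Other genes of the pathway were read from 7 lists. Of 37 genes matched, 31 were tested, and 18 of these had a lower level at an unadjusted edgeR p below 0.05 (12.2% of all genes did) and 0 a higher level (10.8% of all genes did). None passed the adjusted threshold with all 12 mice, and 15 of 32 tested did so, all lower, without *Tet2*-KO replicate 5 (7.3% of all genes were lower past it in that fit). The median log2 fold change of the 31 genes was -0.53.

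All 7 genes of endosomal processing had a lower level at an unadjusted p below 0.05, with a median log2 fold change of -0.82. *Ifi30*, the thiol reductase that opens disulfide bonds of antigens, had the largest, -1.49 (SE 0.46, edgeR adjusted p = 0.128), from 29.9 ± 11.2 to 10.8 ± 8.43 CPM (SD, n = 6 per group). *Ctss*, the cathepsin that removes the invariant chain in most presenting cells, averaged 345 ± 102 CPM in WT mice against 191 ± 94.6 CPM in *Tet2*-KO mice (SD, 6 per group; log2 fold change -0.86, SE 0.33, edgeR adjusted p = 0.171). The proteases *Ctsd*, *Ctsl*, *Ctsz*, *Ctsb* and *Lgmn* had log2 fold changes of -0.84, -0.82, -0.82, -0.80 and -0.69. They serve lysosomes in general and not class II alone.

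In the interferon gamma arm upstream of *Ciita*, 4 of 5 tested genes had a lower level at an unadjusted p below 0.05. *Irf1* had a log2 fold change of -0.78 (SE 0.19, edgeR adjusted p = 0.110) and *Ifngr1*, a chain of the receptor, one of -0.72. *Ifngr2*, the other receptor chain, and the kinase gene *Jak2* had smaller ones, -0.28 and -0.11. *Ifng* itself had at most 2 counts in any mouse, so a difference was not detectable at this depth.

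The genes of the DNA-binding proteins that CIITA joins had a median log2 fold change of -0.03. *Nfya*, a subunit of NF-Y, was the 1 of 7 genes with an unadjusted p below 0.05, with a mean of 37.4 ± 4.84 CPM in WT against 27.9 ± 3.00 CPM in *Tet2*-KO mice (SD, n = 6 per group; log2 fold change -0.43, SE 0.087, edgeR adjusted p = 0.104). In *Nfya* no *Tet2*-KO mouse reached the lowest WT mouse, which held for 0.641% of all genes. *Rfx5*, a subunit of RFX, had a log2 fold change of 0.01 (SE 0.076, edgeR adjusted p = 0.949).

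Of the class II chains outside the group, *H2-Oa* and *H2-Ob*, whose product restrains DM in B cells, were at 10 to 39 and 20 to 66 counts per WT mouse and had log2 fold changes of -0.57 and -0.45 (SEs 0.41 and 0.31, edgeR adjusted p = 0.421 and 0.416). *H2-Eb2* did not pass the filter on low counts, with 4 to 11 counts per WT mouse and 0 to 3 per *Tet2*-KO mouse. Its level was 0.497 ± 0.172 CPM in WT and 0.1002 ± 0.0631 CPM in *Tet2*-KO mice (SD, n = 6 per group), with every *Tet2*-KO mouse below every WT mouse (exact permutation p = 0.00216, unadjusted and the smallest that 6 against 6 mice can give). Of the genes of class II turnover, *Cd83*, which stabilizes surface class II and CD86, had a log2 fold change of -0.53 (SE 0.17, edgeR adjusted p = 0.131), and the ubiquitin ligase genes *March1* and *March8* had p-values above 0.05.

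Among further co-stimulatory molecules of presenting cells, *Cd40*, the receptor through which T cells license these cells, had every *Tet2*-KO mouse below every WT mouse (0.641% of all genes had this). It rested on 24 to 43 counts per WT mouse and 7 to 24 per *Tet2*-KO mouse. *Cd40* averaged 2.30 ± 0.447 CPM in WT mice against 0.971 ± 0.47 CPM in *Tet2*-KO mice (SD, 6 per group; log2 fold change -1.26, SE 0.26, edgeR adjusted p = 0.104). *Cd274*, which encodes the inhibitory ligand PD-L1, had a log2 fold change of -0.83 (SE 0.28, edgeR adjusted p = 0.135). On the side of the T cell, *Cd28* had one of -1.44, *Pdcd1*, which encodes PD-1, one of -1.17 and *Cd4*, which binds class II, one of -0.39 (edgeR adjusted p = 0.148, 0.123 and 0.145). *Cd4* averaged 5.74 ± 1.08 CPM in WT and 4.37 ± 0.706 CPM in *Tet2*-KO mice (SD, 6 per group), with 4 of 6 *Tet2*-KO mice under all WT mice.

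**Figure D4:**
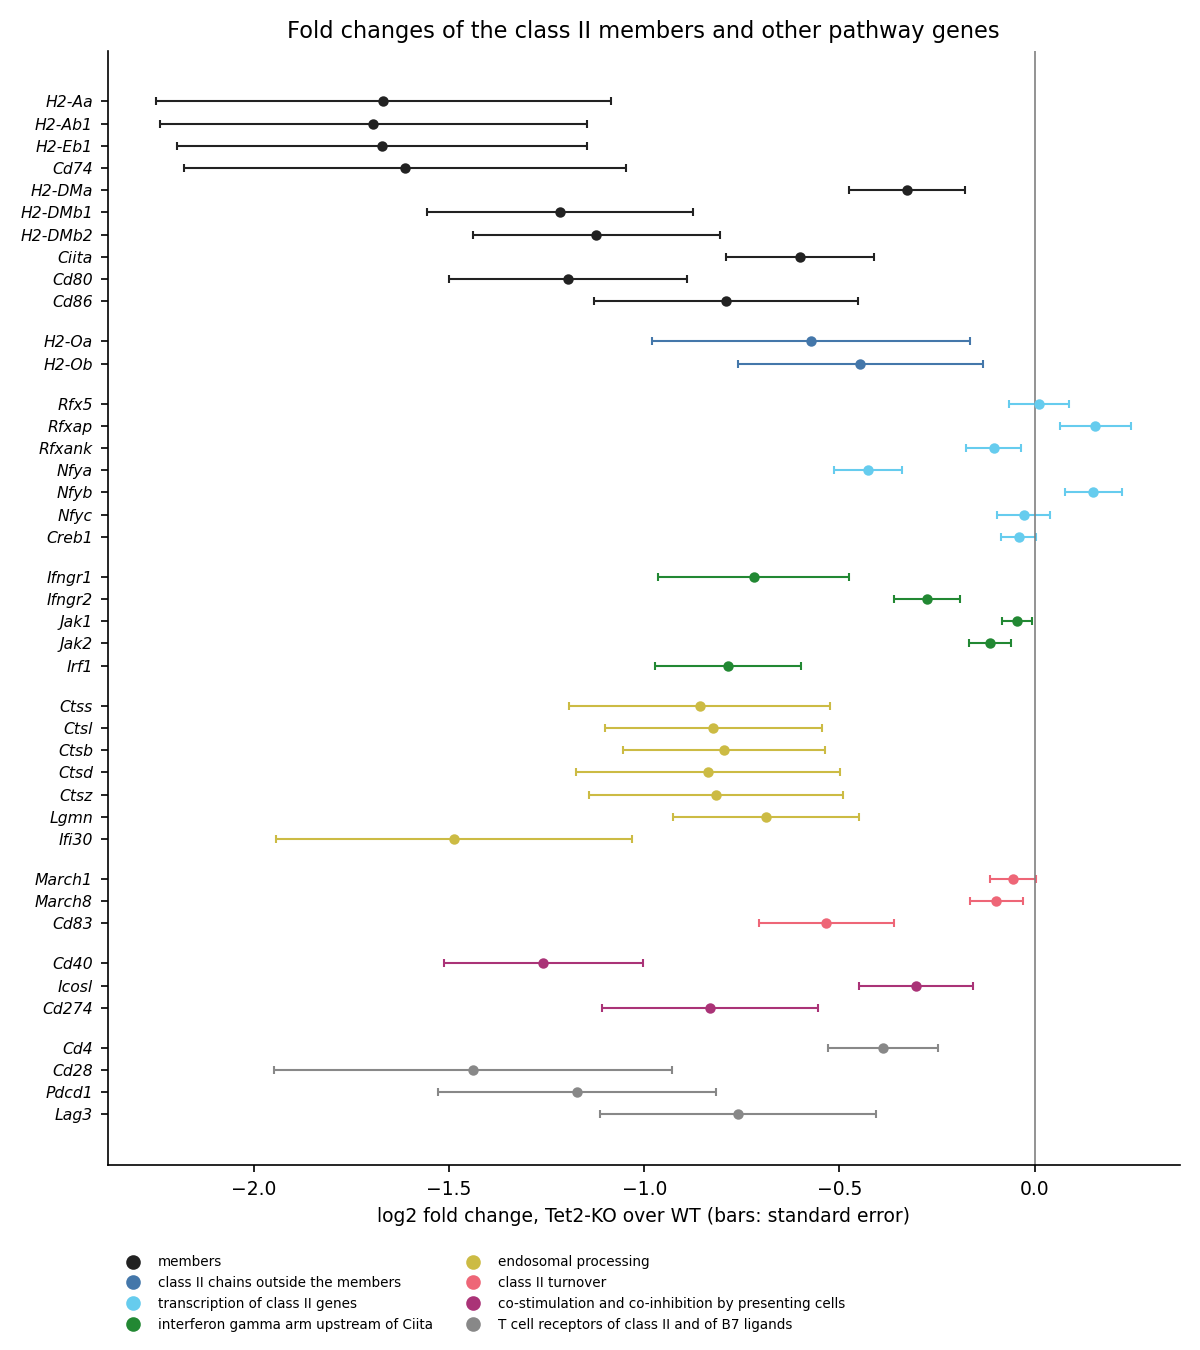
Log2 fold change of *Tet2*-KO over WT for the 10 genes and the 31 tested genes of 7 pathway lists, with bars of 1 standard error from the edgeR fit (n = 6 per group). The chains and *Cd74* lie between -1.69 and -1.61, all 7 genes of endosomal processing are left of 0, and the genes of transcription lie close to 0 except *Nfya*.

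Marker genes of the cells that can carry class II were read beside these results, and their part in them was not tested. Of 8 monocyte markers 7 had a lower level at an unadjusted p below 0.05, which 12.2% of all genes had. The 8 markers had a median log2 fold change of -1.77. Their summed level was 440 to 892 CPM in the WT mice and 156 to 538 CPM in the *Tet2*-KO mice, 538 being that of replicate 5. For activated phagocytes 6 of 8 markers were lower (median -1.45), from 961 to 2268 CPM in the WT mice and from 101 to 1398 CPM in the *Tet2*-KO mice, with replicate 5 again highest. For border-associated macrophages 5 of 8 were lower (median -0.88), with sums of 49.3 to 87.2 and 14.9 to 61.0 CPM. No list had a marker without counts in all 12 mice.

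Of 8 dendritic cell markers 6 were lower at an unadjusted p below 0.05 (12.2% of all genes were), with a median of -0.78. The 8 markers summed to 45.8 to 50.2 CPM in the WT mice and 36.9 to 47.5 CPM in the *Tet2*-KO mice. Most of these sums came from *Flt3* and *Zbtb46*, which had log2 fold changes of -0.12 and -0.04. Both tested B cell markers of 7, *Cd79b* and *Pax5*, were lower (median -0.99), and the 7 markers summed to 5.77 to 12.4 CPM in the WT mice and 2.82 to 5.88 CPM in the *Tet2*-KO mice. Of 5 tested T cell markers 4 were lower (median -0.93), with sums of 9.78 to 13.6 and 5.54 to 10.2 CPM over 7 markers. For microglia 2 of 8 were lower (median -0.21), with sums of 599 to 1068 CPM in the WT mice and 276 to 739 CPM in the *Tet2*-KO mice. All 6 neuron markers had a higher level at an unadjusted p below 0.05 (median 0.26), which 10.8% of all genes had. Of the astrocyte and oligodendrocyte markers, 0 of 5 and 0 of 5 passed that threshold in either direction. By the same unadjusted threshold 2 of 5 endothelial markers were lower and 3 of 5 red blood cell markers were higher. In the edgeR fit without *Tet2*-KO replicate 5, 7 of 8 monocyte, 5 of 8 phagocyte, 5 of 8 border macrophage, 4 of 8 dendritic cell, 2 of 2 B cell, 4 of 5 T cell, 1 of 5 endothelial and 0 of 8 microglia markers were lower past the adjusted threshold (7.3% of all genes were). In that fit 2 of 6 neuron markers were higher past it (3.7% of all genes were), and 0 of 5 astrocyte, 0 of 5 oligodendrocyte and 0 of 5 red blood cell markers passed in either direction. With all 12 mice no marker of these lists passed it.

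**Figure D5:**
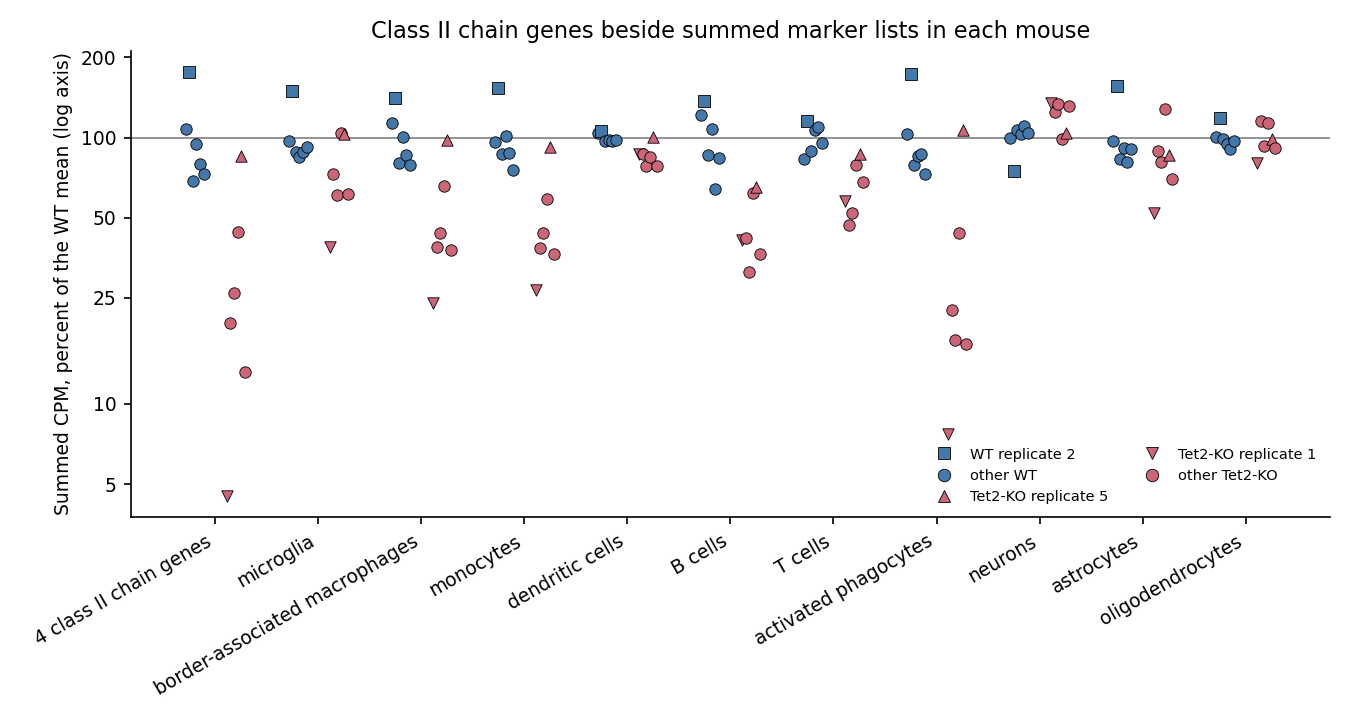
Summed CPM of *H2-Aa*, *H2-Ab1*, *H2-Eb1* and *Cd74* (left) and of 10 marker lists in each mouse, in percent of the mean of the 6 WT mice, on a log axis. *Tet2*-KO replicate 1 (downward triangle) is lowest and replicate 5 (upward triangle) highest of the *Tet2*-KO mice in the 4 genes and in the lists of monocytes, border-associated macrophages and activated phagocytes.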

How the data were processed

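Bulk RNA-sequencing of 12 brains was analysed from the count table. The authors removed ribosomal RNA before library preparation and processed read pairs with Trimmomatic 0.36 (trimming), STAR 2.5.2b (alignment to mm10) and featureCounts of Subread 1.5.2 (unique reads over exons), with versions and build per the submitters' processing notes. The deposited values are whole-number counts per gene, without normalization. Groups came from titles and genotype entries, since the treatment entry names control cells in both groups. No source says that same-numbered mice were paired.

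CPM, RPKM and fold changes were then derived in R 4.3.3. After filterByExpr and TMM scaling, edgeR 4.0.16 compared the groups by its robust quasi-likelihood F test without covariates, with Benjamini-Hochberg adjustment over 20290 genes. Each SE is the size of the log2 fold change over the root of its F value. RPKM used the union of GENCODE M21 exons, which overstates the transcript length. Permutation tests and ratios enumerated all 924 assignments of the mice (smallest p 0.00216) on log2(CPM + 0.1). Scripts were tested on simulated data. Alternatives were DESeq2 1.42.0, voom of limma 3.58.1 with quality weights, other scalings and filters, a block by replicate number and each library left out.

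The 10 members, the pathway and marker lists and the rule for named genes were chosen with earlier results of these data known. The rule named all members, pathway genes with an unadjusted p below 0.05 plus *H2-Ea-ps*, *Ctss* and *Cd4*, the 10 genes closest in profile, and 5 reference genes. 1 gene of the pathway lists is not reported here and was left out of their counts. Other genes named were chosen after their values were seen. Total counts of 12000261 to 21049763 per mouse leave a sampling error that matters most for genes with few counts, such as *H2-DMb2*, *Cd80*, *H2-Eb2* and *Cd40*, and intervals cover counting error only.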

Additional observations from a re-analysis of the deposited data

Results flagged for a closer look

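In each group of 6 mice the highest and the lowest value of each of the 10 genes were compared with the other mice by Dixon's ratio at the 95% level. Of 20 groups tested, 4 held a mouse that stood apart. The 10 genes were measured in the same mice, so the 20 tests are not independent and this count cannot be weighed against chance. WT replicate 2 stood apart in 3 genes, at 70.8 CPM in *H2-Ab1*, where the next WT mouse was at 40.3 CPM, at 53.2 CPM in *H2-Eb1*, where the next was at 30.8 CPM, and at 21.3 CPM in *Cd86*, where the next was at 12.5 CPM. *Tet2*-KO replicate 5 stood apart at 1.57 CPM in *H2-DMb2*, where the next *Tet2*-KO mouse was at 0.617 CPM.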

How the results depend on the processing

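Over the 20 alternatives to the edgeR fit of all 12 mice, the sign of every member's log2 fold change stayed negative wherever the gene was tested. The number of members past the adjusted threshold, 0 with edgeR, was 6 with the DESeq2 Wald test on the same genes, 8 with limma-voom with sample quality weights and 4 with DESeq2 on every gene with a count, an alternative added after the data were seen. With each library left out in turn it ranged from 0 to 9, the 9 without *Tet2*-KO replicate 5, and the cause was not tested. Members without overlap between the groups ranged from 0 to 8. The 8 were found without the same mouse, the only one that had overlapped in them. The median log2 fold change then lay between -1.45 (*Tet2*-KO replicate 5 left out) and -1.03 (WT replicate 2 left out). Members with an unadjusted p below 0.05 ranged from 8 to 10 and pathway genes below it from 14 to 22. Over all genes, 1622 of 20475 (WT replicate 2 left out) to 2993 of 20525 (*Tet2*-KO replicate 5 left out) were lower below it. Members with an exact permutation p below 0.05 ranged from 8 to 10 (22% of all genes with all 12 mice). With at least 10 counts in every library, *H2-DMb2* and *Cd80* were not tested, and the 8 others had a median of -1.42.

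With the replicate number as a block, 0 members passed the adjusted threshold and the median was -1.22. In that fit 9 members had an unadjusted p below 0.05 with a lower level, as did 2405 of all 20290 genes. Same-numbered mice did not deviate together (correlations from -0.17 to 0.23), and 1 of 6 numbers was the closest match in both directions, so the numbers were not taken as pairs. Over all genes, 5 passed the adjusted threshold with edgeR and 1464 with DESeq2, 2013 with limma-voom, 44 without a filter on low counts, 0 with at least 10 counts in every library, where 2218 lower and 2023 higher genes had an unadjusted p below 0.05, and 2257 without *Tet2*-KO replicate 5. An unadjusted p below 0.05 was held by 2129 lower and 3009 higher genes with upper quartile scaling, against 2477 and 2201 with TMM, and by 9 members with that scaling. The depth limits *Ifng* and *H2-Ea-ps*, which had too few counts to compare, and *H2-Eb2*, which the edgeR fit of all 12 mice left out.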
